A study of Homo sapiens with 2 samples.

Results

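miR-132 and miR-212 are a pair of neighbouring microRNAs on chromosome 17 that are known to be induced through the transcription factor CREB. Their 4 mature arms, hsa-miR-132-5p, hsa-miR-132-3p, hsa-miR-212-5p and hsa-miR-212-3p (hsa, for human, is left out below), were taken by name from the 2588 mature names in the deposited count tables. The tables come from parental MDA231 (MDA-MB-231) cells, a triple-negative breast cancer line, in a search for microRNAs that associate with the long non-coding RNA MACC1-AS1. The bait library held the small RNAs recovered from MDA231 lysate on amylose resin that carried MACC1-AS1-MS2, the RNA made in vitro with MS2 hairpins and held by a fusion of maltose-binding protein and MS2 coat protein. The no-bait library is labelled as having no RNA substrate. The labels give both libraries the same protocol, elution with 10 mmol/L maltose included, and name no library with an unrelated RNA or with MS2 hairpins alone. They do not say whether the no-bait resin carried the coat-protein fusion. Recovery by the MACC1-AS1 sequence, by its tag, by any RNA on the resin and, if the control lacked it, by the fusion protein cannot be told apart in this design. There was 1 library per group, with 1047269 counts with bait and 269716 without, so no difference has a replicate check, no p-value was computed, and all intervals cover counting error only. The labels name no stimulation or inhibition of CREB, so the CREB response itself was not measured.

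A microRNA hairpin is cut by Drosha and Dicer into a duplex, and 1 of the 2 arms is usually kept in Argonaute, where its seed, bases 2 to 8, pairs with target RNAs. The miR-132/miR-212 pair is made from a single primary transcript and is best known in neurons, where neuronal activity and neurotrophins raise it through CREB. miR-132-3p is usually treated as the guide arm and is known to repress RASA1, which encodes a Ras GTPase-activating protein, in endothelial cells.

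The mature sequences are shown because the 3p arms share a seed while the 5p arms do not. All 4 were matched in the RefSeq miRNA table (GRCh38.p14), and capitals mark the seed.
miR-132-3p: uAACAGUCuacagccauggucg
miR-212-3p: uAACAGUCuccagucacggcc
miR-132-5p: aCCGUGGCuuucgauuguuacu
miR-212-5p: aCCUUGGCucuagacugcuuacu
The seed AACAGUC was found in miR-132-3p and miR-212-3p alone among 2370 human mature names in that table. Counted from the 5′ end of miR-132-3p, the 3p arms were identical for 9 bases and at 17 of 21 positions, with the differences A10C, C14U, U17C and U20C. Compared base by base without gaps, the 5p arms were identical at 14 of 22 positions, and their seeds differed by G4U. They are 22 and 23 bases long and both end in uuacu, an ending that a comparison without gaps does not align. No other human mature name in the table carried the seed of either 5p arm. The 4 differences separate full-length reads of the 3p arms, but how the authors assigned reads that match both is not stated in the labels or file headers.

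The hairpins lie 262 bases apart on the minus strand of chromosome 17 (GRCh38.p14). MIR132 spans chr17:2049908-2050008 and MIR212 spans chr17:2050271-2050380. In GENCODE 29 no other annotated gene overlapped the interval from MIR132 to MIR212. The protein-coding genes within 20 kb were DPH1 and OVCA2 on the lower-coordinate side, and HIC1 and SMG6 on the other. The hairpins are printed as RNA with both mature arms in capitals, to show that the arms compared below come from the 2 sides of 1 stem.
MIR132: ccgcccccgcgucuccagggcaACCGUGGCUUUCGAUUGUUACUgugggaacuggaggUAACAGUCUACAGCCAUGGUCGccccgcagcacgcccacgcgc
MIR212: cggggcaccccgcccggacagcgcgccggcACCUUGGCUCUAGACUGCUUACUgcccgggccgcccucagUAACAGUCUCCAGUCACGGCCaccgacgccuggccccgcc

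Most of the pair's counts in the bait library came from miR-132, more from its 5p arm than from the 3p arm, and miR-212-3p was counted in neither library. Levels are given in RPM, the counts scaled to an equal library total, with exact Poisson 95% intervals. miR-132-5p had 87 counts with bait, or 83.1 RPM (66.5 to 102), against 2 counts without bait, or 7.42 RPM (0.898 to 26.8). The 2 intervals did not overlap. miR-132-3p had 45 counts with bait, 43.0 RPM (31.3 to 57.5), and 4 without, 14.8 RPM (4.04 to 38.0). Here the higher value was again with bait, but the intervals overlapped. miR-212-5p had 15 counts with bait, 14.3 RPM (8.02 to 23.6), and 2 without, 7.42 RPM (0.898 to 26.8), and its intervals overlapped widely. miR-212-3p had 0 counts in both libraries, which allows up to 2.86 RPM with bait and 11.1 RPM without at 3 counts. With bait the levels fell in the order miR-132-5p, miR-132-3p, miR-212-5p and miR-212-3p, and neighbours in this order had separate intervals. Without bait the 3 counted arms could not be ordered, since 2 counts and 4 counts overlap.

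**Figure D1:**
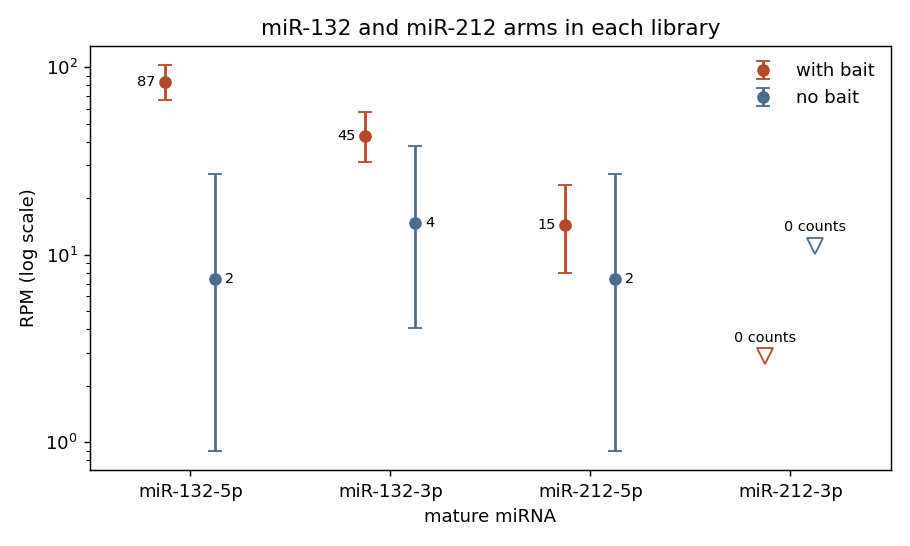
Level of each arm in RPM on a log scale, with the bait library in red to the left and the no-bait library in blue to the right. Points are single libraries labelled with their counts, bars are exact Poisson 95% intervals, and open triangles mark the limit of 3 counts where 0 were counted. With bait the order runs from 83.1 RPM for miR-132-5p down to miR-212-3p at 0 counts, and the no-bait values rest on 2 to 4 counts.

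Each of the 4 arms held at most 0.00831% of the counts of a library, and no library of the lysate itself was analysed here. With bait 651 names were detected and without bait 476, at depths that differ 3.88-fold, so places are not comparable between the libraries. Ranked by counts, miR-132-5p stood at place 140 with bait and 291 without, where 61 names shared its 2 counts. miR-132-3p stood at place 178 with bait and 228 without, and miR-212-5p at 245 and 291. Together the pair held 147 counts with bait and 8 without, or 140 RPM and 29.7 RPM. The sum of the 4 arms was 4.73-fold higher with bait, with an interval of 2.34 to 11.2.

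As a share of the library, both arms of miR-132 were higher with bait. The ratio of bait over no bait is given with its exact conditional binomial 95% interval, and miRNAs with 30 or more counts over both libraries are called tested, meaning that this call rule was applied to them. A call of higher needed a ratio of 2 or more, and a call of lower 0.5 or less, with an interval that excluded 1. miR-132-5p had a ratio of 11.2 (3.01 to 94.0) and was called higher. At its bait share the no-bait library would have held 22.4 counts, where 2 were counted. miR-132-3p had a ratio of 2.90 (1.06 to 11.1) and was called higher, with 11.6 counts at the bait share and 4 counted. The call of miR-132-3p did not hold when the 5 most abundant miRNAs were taken out of the totals, where the ratio was 2.65 (0.966 to 10.1). miR-212-5p had a ratio of 1.93 (0.449 to 17.4) from 17 summed counts, too few for a call, and the 3.86 counts at its bait share lie close to the 2 counted. miR-212-3p has no ratio.

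Of the members, 2 of 4 were thus called, both higher, while of the 231 tested miRNAs 39.4% were called higher and 26.8% lower, or 66.2% in either direction. Both called arms passed the minimum of 30 through the bait library alone. A miRNA with at most 4 no-bait counts is tested from 26 bait counts on, where the smallest possible ratio is 1.67, and 36 of the 43 tested miRNAs with so few were called higher. At 2 no-bait counts, as for miR-132-5p, 28 bait counts are needed and the smallest possible ratio is 3.61. A ratio past 2 was thus fixed by the filter there, and 23 of 24 tested miRNAs with at most 2 were called higher. The count of called members is therefore a description and no sign that the pair stands apart. By ratio miR-132-5p was number 19 and miR-132-3p number 80 of the 231, whose median ratio was 1.46. Where a library had no counts of a miRNA, 3 counts were used in its ratio. A miRNA with no counts without bait can thus stand lower than its counts warrant, so these places are approximate.

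**Figure D2:**
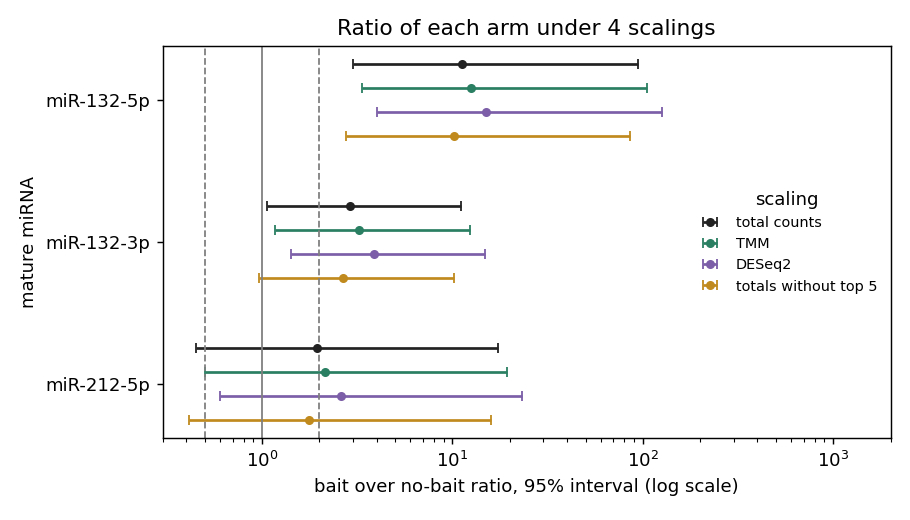
Bait over no-bait ratio of the 3 counted arms on a log scale, with exact conditional 95% intervals, under 4 scalings between the libraries. The solid line marks a ratio of 1 and the dashed lines 0.5 and 2. miR-132-5p lies above 2 with its whole interval under each scaling, miR-132-3p crosses 1 when the 5 most abundant miRNAs are taken out of the totals, and miR-212-5p crosses 1 under each.

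The ratios did not differ between arms or paralogs beyond the counting error. The odds of a miR-132 count being 5p were 3.87-fold higher with bait, with an interval of 0.526 to 43.8. The odds that a count of the pair came from miR-212 rather than miR-132 had a bait over no-bait odds ratio of 0.341 (0.0548 to 3.78). For the 5p arms alone, the odds ratio of miR-212-5p against miR-132-5p was 0.172 (0.0120 to 2.61). These intervals include both equal ratios and large differences, so the data do not show that the arms or the paralogs behaved alike.

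Within each library, proportions do not depend on the scaling between the libraries. miR-212 made up 10.2% of the pair with bait (15 of 147 counts, Clopper-Pearson 95% interval 5.82% to 16.3%) and 25.0% without (2 of 8, 3.19% to 65.1%). The larger share of miR-132 was thus resolved with bait only. Of the 3p counts, which carry the shared seed AACAGUC, 0 of 45 with bait and 0 of 4 without were miR-212-3p, so the upper bounds of its share were 7.87% and 60.2%. All 15 bait counts and both no-bait counts of miR-212 were 5p, with lower bounds of 78.2% and 15.8%.

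The 5p arm of miR-132, which is usually treated as the passenger, was the more counted arm on the bait resin. It made up 65.9% of miR-132 counts with bait (87 of 132, 57.2% to 73.9%) and 33.3% without (2 of 6, 4.33% to 77.7%). More 5p than 3p counts were not unusual with bait, since 73 of 132 hairpins with at least 30 counts there, or 55.3%, showed the same. A mixed use of both arms was less common: in 16 of the 132 hairpins, miR-132 among them, the 5p share lay between 20% and 80%, limits chosen after the values were seen. The larger arm differed between the libraries in 10 of 139 hairpins that were seen in both and held at least 30 summed counts, and miR-132 was 1 of them. In the other 9 the odds ratio interval excluded 1, whereas that of miR-132 included it. Arms were paired by name, which leaves out hairpins whose arms are numbered differently, such as those of miR-24. miR-365a and miR-365b, both among the 10, have equal 3p counts, as do miR-199a and miR-199b, so these hairpins are not independent entries.

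**Figure D3:**
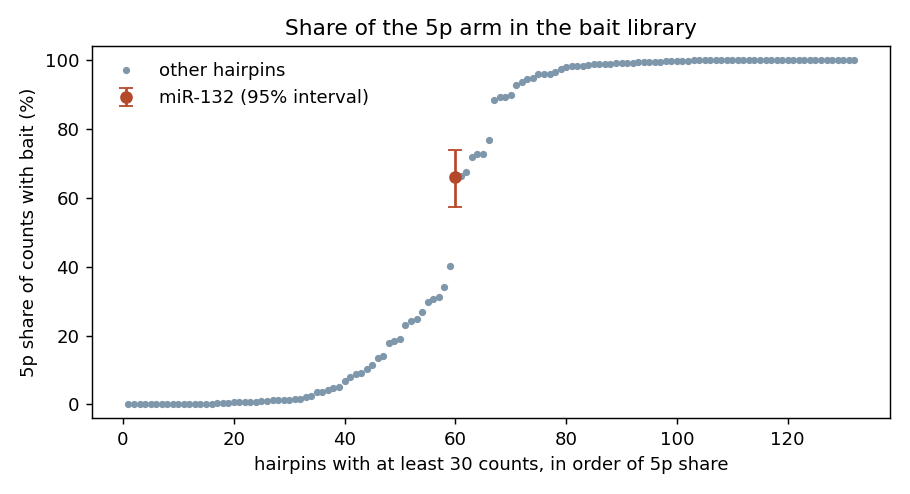
Share of 5p counts in the bait library for 132 hairpins with at least 30 counts, in rising order, with miR-132 in red and its Clopper-Pearson 95% interval. Most hairpins lie near 0% or 100%, and miR-132 at 65.9% is among the 16 between 20% and 80%.

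The miRNAs most like miR-132-5p, by distance in log2 RPM over the 2 libraries among 221 tested candidates with counts in both, were miR-21-3p, miR-18a-5p, miR-425-3p, miR-374b-5p and miR-10a-3p. They lay 0.27 to 0.77 away on that scale and had 51 to 115 counts with bait and 2 or 3 without. miR-21-3p, the less abundant arm of miR-21, was the nearest with a ratio of 9.27 (2.48 to 78.0). miR-18a-5p, a member of the miR-17-92 cluster, had a ratio of 13.8 (3.72 to 115). All 5 were called higher, which is no separate result because the distance uses the same values as the ratio.

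**Figure D4:**
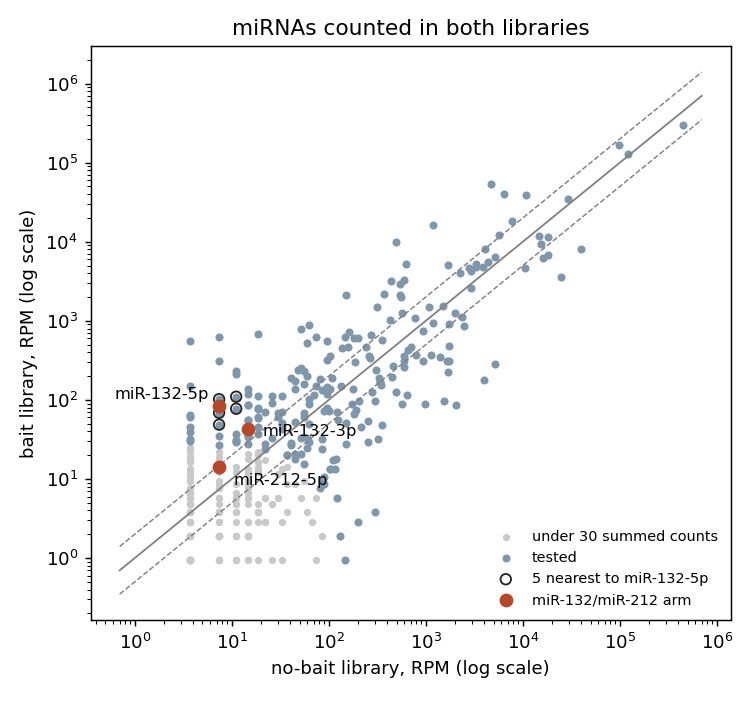
RPM of each miRNA counted in both libraries, no bait on the x axis and bait on the y axis, both on log scales. The solid line marks equal values and the dashed lines 2-fold differences. The 3 counted arms of the pair, in red, lie at the low end of the no-bait axis, where values step by single counts, with miR-132-5p among its 5 nearest neighbours (open circles).

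Other miRNAs of the same setting were read from lists drawn up with earlier results of these libraries known. miR-22, which also lies on the short arm of chromosome 17, passed neither rule, with ratios of 1.39 (1.22 to 1.58) for miR-22-3p and 1.76 (1.19 to 2.69) for miR-22-5p, which DESeq2 size factors, an alternative scaling, called higher. Of 12 miRNAs linked to neuronal activity or synapses, 4 were tested, 3 were higher and 0 lower, where 39.4% of all tested miRNAs were higher, with a median log2 ratio of 1.62 beside 0.55 over all tested. The higher ones were miR-138-5p, which limits dendritic spine growth in rat neurons, at 14.2-fold (8.83 to 24.5), miR-34c-5p, a p53 target, at 4.12-fold (1.69 to 13.0), and miR-9-5p, a miRNA of neural progenitors, at 2.28-fold (1.47 to 3.73). The fourth, miR-128-3p, was the most abundant of the list and had a ratio of 1.04 (0.935 to 1.17). miR-134-5p, an activity-regulated dendritic miRNA, had 4 counts with bait and 3 without, or 3.82 RPM and 11.1 RPM, a ratio of 0.343 (0.0581 to 2.34) from too few counts to test. Among the immune-inducible miRNAs, with which miR-132 is grouped in monocytes, 0 of 3 tested passed either rule. Of all tested miRNAs 66.2% passed 1 of the rules. All 3 were called higher with DESeq2 size factors, under which 114 of all 231 tested miRNAs were called higher. miR-146a-5p had a ratio of 1.77 (1.63 to 1.93), and miR-155-5p, with 6 counts in each library and too few to test, had 5.73 RPM with bait and 22.2 RPM without, a ratio of 0.258 (0.0689 to 0.963). Of the angiogenic list, chosen because miR-132 acts in endothelium, 2 of 4 tested were higher, a share near the 39.4% of all tested miRNAs. With TMM or DESeq2 factors 3 were higher, with miR-130a-3p added. Of all 231 tested miRNAs, 96 were called higher with TMM and 114 with DESeq2. miR-126-3p, typical of endothelium, had a ratio of 3.31 (2.47 to 4.52). miR-210-3p, which hypoxia induces, had a ratio of 4.93 (2.89 to 9.14), while miR-378a-3p had 0.780 (0.676 to 0.902) and miR-130a-3p 3.61 (0.909 to 31.2). The list's median log2 ratio was 1.79.

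Markers of other cell types were checked because the pair is best known from neurons. The neural markers held 0.175% of counts with bait and 0.164% without, mostly miR-128-3p, while miR-124-3p and miR-219a-5p were at 0 in both libraries. Of the rest, miR-9-5p had 195 counts with bait and 22 without, and miR-137 had 3 and 1. miR-129-5p went the other way with 4 and 16, a ratio of 0.0644 (0.0157 to 0.200) from too few counts to test. All of these neural markers but miR-129-5p are also on the list linked to neuronal activity or synapses, so they are no separate check. The basal breast line markers held 53.0% with bait and 59.9% without, mostly miR-100-5p and miR-21-5p, which is on the immune-inducible list as well. Their ratios ran both ways, up to 11.4 for miR-125b-5p and down to 0.200 for miR-222-3p. The epithelial markers held 0.0181% and 0.0111%, mostly miR-200b-3p with 144 counts with bait and 28 without. In the same order miR-200c-3p had 20 and 1, miR-200a-3p 18 and 1, and miR-429 8 and 0, while miR-141-3p and miR-205-5p were at 0. The blood markers held 0.0432% and 0.0864%, mostly miR-486-5p with 386 counts with bait and 214 without. In the same order miR-451a had 4 and 10, miR-142-5p 45 and 9, and miR-142-3p 17 and 0, so their shares ran both ways. miR-144-3p, miR-223-3p and miR-150-5p were at 0 in both libraries.

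Seed matches were looked for in the GENCODE transcript of MACC1-AS1, which is 639 nt long, since the isoform and tag used on the resin were not analysed here. The motif GACTGTT, the match to the seed of both 3p arms, was absent from the transcript and present in 3.51% of 4158 GENCODE 29 long non-coding transcripts within 10% of its length. GCCACGG, the match to miR-132-5p, was absent and present in 2.31% of them. GCCAAGG, the match to miR-212-5p, was absent and present in 7.12%. The matches to bases 2 to 7, each contained in the longer motif, were also absent. Of the transcripts of like length, 15.8% held ACTGTT (both 3p arms), 8.56% held CCACGG (miR-132-5p) and 24.1% held CCAAGG (miR-212-5p). Only the sense strand was searched, as pairing is with the RNA. Of 203 tested miRNAs with a RefSeq sequence, 4 had a match to bases 2 to 8 in MACC1-AS1, of which 3 were called higher, against 78 of the 199 without a match. With only 4 such miRNAs, none of them a member, the counts allow no comparison, and pairing with MACC1-AS1 was not tested.

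In the authors' deposited table, miR-132-5p had a log2 fold change of 3.48 and a p-value of 0.000499. The authors' deposited table gave miR-132-3p 1.53 and a p-value of 0.110, and miR-212-5p 0.95 and a p-value of 0.498. The authors' deposited table thus leaves miR-132-3p above a threshold of 0.05, while the counting interval used here just excluded 1. How these p-values were obtained is not stated, and they compare 2 libraries rather than 2 conditions.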

How the data were processed

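For each library the authors deposited whole-number counts per mature miRNA name and an RPM value, which is the count scaled to the library total. The authors also deposited a table of log2 fold changes and p-values from a test that is not named, and those printed here were copied unchanged. The submitters' processing notes name BWA. Its version, the genome build, the miRNA reference, trimming and the handling of reads shared by similar miRNAs are not stated. Counts without molecular identifiers are reads, not molecules, so amplification is not removed, and rare arms rest on few counts.

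Ratios of bait over no bait were computed for all 2588 names with counts scaled by each library's total (Python 3.11.15, scipy 1.17.1). Where only 1 library had counts of a name, 3 counts were used for the other in the ratio, but not in its interval. Intervals are at 95% and exact: conditional binomial for ratios, Poisson for levels, Clopper-Pearson for shares, conditional for odds ratios. The interval and call procedure was run on simulated Poisson counts scaled by known totals. Such counts hold counting error only, so the simulation says nothing about amplification or spread between libraries. With 1 library per group no p-value was computed. Alternatives were edgeR 4.0.16 TMM factors, DESeq2 1.42.0 size factors, totals without the 5 most abundant miRNAs, the deposited RPM, 0.5 counts added, minimums of 10 and 100 counts or none, and a whole interval past 2-fold. Named miRNAs were the members, the list members, the 5 nearest to the most abundant member, and those sharing a seed. Other hairpins were named in the arm comparison only, to show the limits of its entries. Those hairpins, the neighbouring genes of MIR132 and MIR212 and the 5p share limits were chosen after seeing the values. The members and lists were chosen with earlier results of these data known. Sequences are from RefSeq (GRCh38.p14) and annotation from GENCODE 29.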

Additional observations from a re-analysis of the deposited data

How the results depend on the processing

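The calls of the pair rest on 2 to 4 no-bait counts, and with 1 library per group no replicate could be left out. miR-132-5p stayed called higher under each scaling, with ratios of 10.2 to 15.0, and its whole interval lay past 2-fold. miR-132-3p stayed called with TMM (ratio 3.22) and DESeq2 size factors (3.88). Its call did not hold when the 5 most abundant miRNAs were taken out of the totals (log2 ratio 1.41), where the smaller factor moved the lower bound under 1, and when the whole interval had to lie past 2-fold (log2 ratio 1.53). miR-212-5p passed neither rule at a minimum of 10 counts or with no count filter, and with a minimum of 100 counts no member could be tested. Adding 0.5 counts gave ratios of 9.01 for miR-132-5p, 2.60 for miR-132-3p and 1.60 for miR-212-5p. The share of miR-212 among 3p arms with bait, 0%, became 10.2% when both arms of each hairpin were summed, which adds the 5p counts. Over all tested miRNAs, 59 were higher and 37 lower at a minimum of 100 counts, and 103 were lower with no count filter, against 91 higher and 62 lower in the results above. Fewer or more miRNAs are then tested. Of called miRNAs 59.5% were higher, and 72.2% with DESeq2 size factors, which moved the median log2 ratio by 0.42. TMM moved it by 0.15, and totals without the 5 most abundant miRNAs by -0.13. The other 43 alternative values stayed within the counting interval or within 1.5 times the main count. No paired analysis was possible because each group held 1 library.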
